A study of Homo sapiens with 16 samples.

Results

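The genes described here act in G2 phase and mitosis. They were 56 genes given by symbol, and every probe whose platform annotation carries such a symbol was taken, which gave 77 probes out of 24530 on the array (56 genes out of 17553). RNA was measured on 16 Illumina bead arrays, with 2 arrays for each of 8 groups of T47D-MTVL cells, which are luminal human breast cancer cells with a luciferase gene under a mouse mammary tumour virus promoter in their genome. The first 6 groups came from 3 lines whose hairpin is switched on by doxycycline (Dox). In sh225 the hairpin is directed at several variants of the linker histone H1, in sh120 at the variant H1.4, and in Ctrl it has a random sequence. All 3 lines, Ctrl included, also carry a red fluorescent protein and a Dox-regulated repressor, and each is a sorted population of infected cells. The groups sh225_Dox, sh120_Dox and Ctrl_Dox received Dox at 2.5 µg/mL for 6 days, were passaged on day 3 and were kept without serum from day 4 to arrest growth, and the groups sh225, sh120 and Ctrl received no Dox. The groups K26 and WT overexpressed HA-tagged H1.4, as the K26A mutant or as the wild-type protein, each from a single line grown without treatment. The sources used here do not give whether serum was also withdrawn from the arms without Dox and from the overexpression lines.

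Cells that approach division switch on a late wave of transcription. The products include cyclin B with its kinase CDK1, the Aurora and Polo kinases, kinetochore proteins, the spindle checkpoint, the motors that build the spindle and the proteins that cut the cell apart. Many of these genes share a promoter layout, with CCAAT boxes bound by NF-Y and, close to the start, a cell cycle genes homology region (CHR). The MuvB complex binds the CHR. In resting cells it does so as the repressive DREAM complex, with a p130 or p107 pocket protein and E2F4, and in G2 it does so with B-MYB and then FOXM1, as an activator. Linker histones such as H1.4 sit on the nucleosome where its DNA enters and exits and help to compact chromatin.

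Promoter sequence was read from RefSeq (GRCh38.p14) for 46 of the 56 genes, as windows of 250 bases before to 50 after each annotated start. The genes without a window there were TPX2, FOXM1, AURKA, UBE2C, PBK, CENPM, BIRC5, TTK, BUB3 and RACGAP1. Searched on both strands were the CHR, as TTTGAA or TTCGAA, the CCAAT box, as CCAAT, and E2F sites, as any of 4 words (TTCCCGC or else TTGGCGC or else TTCGCGC or else TTGCCGC). A CHR match lay in the windows of 34 of 46 mitotic genes (73.9%) against 19.5% of all 27305 genes with a window. For CCAAT the counts were 34 of 46 (73.9%) against 39.7%, and for E2F 17 of 46 (37.0%) against 15.3%. Both a CHR and a CCAAT match stood in the same window of 27 mitotic genes (58.7%), against 7.85% of all genes. For each role in mitosis that has such a window, a promoter is printed here. It is that of the measured gene with such a window whose transcript fell furthest with Dox in the sh225 line. In some roles a gene without such a window fell further, such as AURKB. Each sequence runs 5′ to 3′ along the gene, from 200 bases before to 10 after the start, with CHR and CCAAT matches in capitals (TTCAAA and ATTGG on the other strand). In CDCA8 a CHR and a CCAAT match overlap.
CDK1, chr10:60778131-60778340, plus strand: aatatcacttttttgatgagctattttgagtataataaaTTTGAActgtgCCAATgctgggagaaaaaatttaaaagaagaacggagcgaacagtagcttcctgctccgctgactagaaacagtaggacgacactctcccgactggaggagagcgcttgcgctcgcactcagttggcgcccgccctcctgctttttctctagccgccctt
CDCA8, chr1:37692316-37692525, plus strand: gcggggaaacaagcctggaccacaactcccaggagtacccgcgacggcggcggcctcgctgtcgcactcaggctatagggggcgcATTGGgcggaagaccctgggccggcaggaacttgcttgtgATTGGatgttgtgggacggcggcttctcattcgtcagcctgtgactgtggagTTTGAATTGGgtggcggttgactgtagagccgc
BUB1, chr2:110678054-110678263, minus strand: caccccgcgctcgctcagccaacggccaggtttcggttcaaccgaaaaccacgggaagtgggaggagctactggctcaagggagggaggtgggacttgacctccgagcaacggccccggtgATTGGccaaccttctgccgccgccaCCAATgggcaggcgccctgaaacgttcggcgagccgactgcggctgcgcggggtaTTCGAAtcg
HJURP, chr2:233854526-233854735, minus strand: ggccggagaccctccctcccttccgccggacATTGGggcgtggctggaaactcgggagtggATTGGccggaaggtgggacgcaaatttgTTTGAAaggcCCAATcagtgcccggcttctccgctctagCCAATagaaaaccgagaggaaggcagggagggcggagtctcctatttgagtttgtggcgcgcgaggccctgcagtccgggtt
CDC20, chr1:43358781-43358990, plus strand: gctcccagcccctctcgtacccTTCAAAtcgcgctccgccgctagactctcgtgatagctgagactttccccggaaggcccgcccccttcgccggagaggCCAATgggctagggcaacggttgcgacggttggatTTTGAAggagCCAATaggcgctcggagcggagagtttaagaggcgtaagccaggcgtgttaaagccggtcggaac
KIF11, chr10:92592930-92593139, plus strand: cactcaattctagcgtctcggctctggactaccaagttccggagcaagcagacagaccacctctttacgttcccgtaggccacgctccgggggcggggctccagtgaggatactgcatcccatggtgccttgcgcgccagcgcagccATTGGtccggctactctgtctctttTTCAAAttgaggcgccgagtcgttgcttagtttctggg
TOP2A, chr17:40417887-40418096, minus strand: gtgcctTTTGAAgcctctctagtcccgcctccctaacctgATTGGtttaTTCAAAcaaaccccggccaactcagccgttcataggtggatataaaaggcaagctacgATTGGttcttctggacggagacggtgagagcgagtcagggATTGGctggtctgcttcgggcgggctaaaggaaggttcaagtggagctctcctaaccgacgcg

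The matches sat at preferred distances. A CHR match began between positions -50 and 10 from the start in 25 mitotic genes (54.3%), against 4.25% of all genes, and a CCAAT match began between positions -110 and -40 in 27 (58.7%), against 19.3%. In the printed window of KIF11 they begin at -28 and -53. In the printed CDK1 window they lie farther upstream, at -161 and -150, while the window of another annotated CDK1 start holds CHR matches at -69, -13 and 10 and CCAAT matches at -78 and -46. Among the mitotic genes the fall in the sh225 line was not larger with a CHR: the median log2 fold change with Dox was -1.48 for the 33 measured genes with a match and -1.73 for the 10 with a window and no match. These matches are letters in a window, not measured binding.

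**Figure D1:**
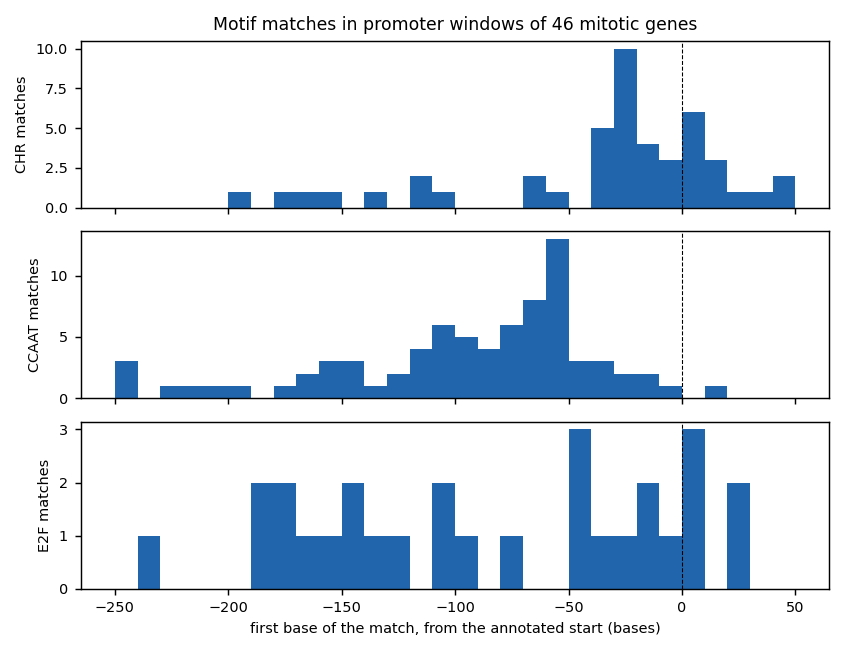
Positions of motif matches in the RefSeq promoter windows of 46 mitotic genes, with the distance from the annotated start in bases on the x axis and the number of matches in bins of 10 bases on the y axis, for CHR, CCAAT and E2F motifs from top to bottom. CHR matches gather just before the start and CCAAT matches mostly from -110 to -40, where 46 of 78 lie.

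Of the 56 genes, 53 could be tested. A gene entered the test when at least 1 probe was detected (detection p under 0.01) on at least 2 of 16 arrays, and the probe of highest mean stood for it. The kinesin CENPE was detected on 1 array, and the checkpoint protein MAD2L1 and the condensin subunit NCAPH on 0, so they have no value here. Of the tested genes 42 were detected on all 16 arrays and 11 on 3 to 15 of them: BUB1, BUB1B, CDC25C, CDCA3, CKAP2, FOXM1, HJURP, KIF4A, NDC80, NUF2 and SKA1. Values are log2 intensities after background correction and quantile normalization. A call means an adjusted p under 0.05 in a limma model of all 16 arrays, with Benjamini-Hochberg adjustment over the 9654 genes and unnamed probes tested, and errors are standard errors of that fit.

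Between 9477 and 10286 probes were detected per array, and replicate arrays correlated at r = 0.989 to 0.994. The number of arrays limits the precision, with a median SE of 0.152 for a log2 fold change between 2 groups, and no label calls the replicates separate cultures, so that p-values measure a spread between arrays that may be technical. The H1.4 transcript could not check the sh120 label, because the H1-4 probe was detected on 0 of the 12 hairpin-line arrays. It was detected on both K26 and both WT arrays. The H1-2 transcript, which encodes another variant, read 5.87 and 6.29 on the sh225_Dox arrays, against 8.85 and 8.81 on the sh225 arrays (log2 intensity). Luminal markers fitted the label of the cells: 12 of 12 passed the filter, and 9 were detected on all arrays. Of the markers of other cells, ACTA2 alone of 4 basal genes, 1 of 7 fibroblast genes, CD68 alone of 5 leukocyte genes and 0 of 5 endothelial genes passed. The luminal markers' summed log2 intensity was 15.52 to 15.57 on sh225_Dox arrays, 15.63 to 15.64 on sh225 arrays, 15.69 to 15.78 on sh120_Dox arrays, 15.61 to 15.65 on sh120 arrays, 15.72 to 15.77 on Ctrl_Dox arrays, 15.63 to 15.67 on Ctrl arrays, 15.32 to 15.41 on K26 arrays and 15.48 to 15.57 on WT arrays. ACTA2 rose with Dox in all 3 hairpin lines, by 0.49 in sh225, 0.55 in sh120 and 0.62 in Ctrl on the log2 scale. CD68 rose by 0.53 in sh120. Single luminal markers also moved. With Dox in sh225 2 of 12 fell and 2 rose (18.5% and 17.1% of everything tested), such as SPDEF (-1.04) and KRT18 (0.68). In sh120 2 fell and 3 rose (8.43% and 8.07%). TFF1 rose in sh225 and fell in sh120, where it was undetected with Dox. Against Ctrl, 5 were lower and 3 higher in WT (15.5% and 16.3%), such as PGR (-1.22) and ERBB3 (0.94). In K26 these 2 moved the same way against Ctrl (-1.75 and 0.69). In K26 3 of the 12 were lower than in WT, TFF1 (-1.40), PGR (-0.53) and SPDEF (-0.51), and 0 were higher (12.8% and 10.1% of everything tested). The part of these shifts in the results below was not tested.

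With the hairpin against several H1 variants switched on, nearly the whole mitotic programme was lower. With Dox 51 of 53 genes fell in the sh225 line and 0 rose, where 18.5% of everything tested was called lower and 17.1% higher, and the median log2 fold change was -1.55, against 0.03 over everything tested. For 45 genes the fitted fall was 2-fold or more, as for 417 of the 9654 genes and unnamed probes tested. It was so for 37 of the 42 genes detected on every array. The probes of 9 genes were undetected on both sh225_Dox arrays, and with the 7 of them that were detected in sh225 set at their bounds, the median was -1.5. In these bulk samples fewer cells in G2 and mitosis and less RNA per such cell cannot be told apart. The 2 sh225_Dox arrays had medians of -1.76 and -1.72 over the 53 genes, relative to the Ctrl mean, against -0.15 and -0.20 on the sh225 arrays. The sh225_Dox arrays lay below the sh225 arrays, without overlap, for 52 genes (31.7% of everything tested did so). The tested probes of BUB1B and NUF2 were undetected in both groups, and without these genes 50 of 51 were lower. Another NUF2 probe was detected on 1 sh225 array and was lower (-1.12, adjusted p = 0.00100 in the limma fit of all probes). Leaving out any array of these groups gave 50 or 51 genes. The values deposited in the authors' series matrix, which are compressed near the background, gave a median of -0.87 for the same 53 genes.

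**Figure D2:**
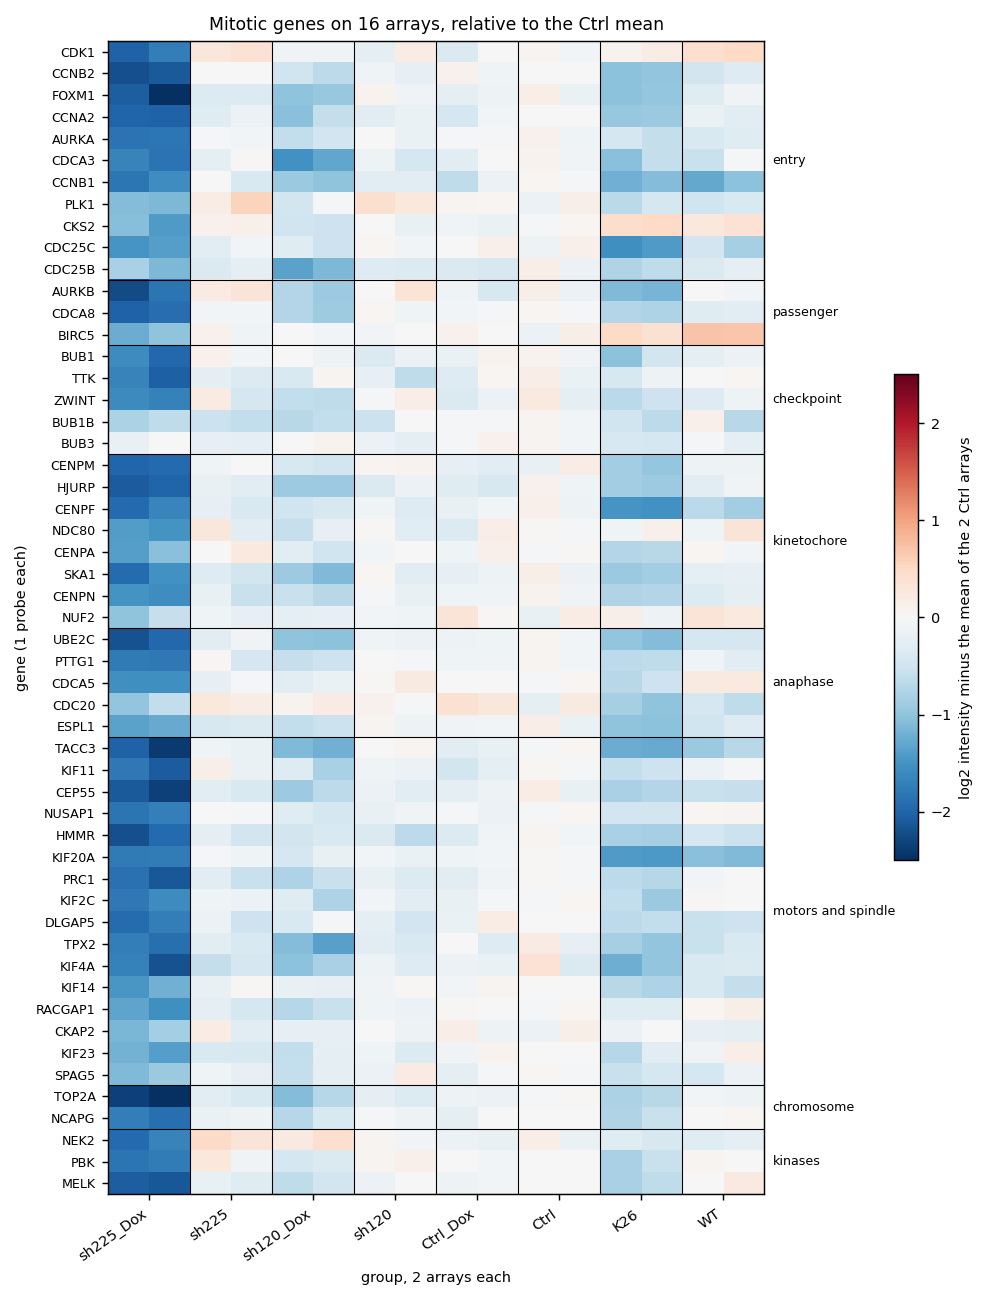
Log2 intensity of 53 mitotic genes (rows, by role) on 16 arrays (columns, 2 per group), minus the mean of the 2 Ctrl arrays; blue is lower and red is higher. Both sh225_Dox arrays are blue in nearly every row, with medians of -1.76 and -1.72, and the sh120_Dox and K26 arrays are paler, with medians of -0.57 and -0.52 and of -0.74 and -0.65.

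In the sh120 line, whose hairpin is directed at H1.4, the shift with Dox was smaller and less uniform. With Dox in the sh120 line 30 of 53 genes fell and 0 rose, where 8.43% of everything tested was called lower and 8.07% higher, and the median log2 fold change was -0.45. The sh120_Dox arrays had medians over the 53 genes of -0.57 and -0.52, relative to the Ctrl mean, against -0.08 and -0.15 on the sh120 arrays. Fold changes were below 0 for 45 genes and above 0 for 8, among them NEK2, TTK, BUB3, BUB1 and DLGAP5. The 2 groups stood apart, with sh120_Dox lower, for 42 genes (29% of everything tested did so). The count rests on the number of arrays: leaving out sh120 replicate 1 or 2 gave 14 or 18 genes, and leaving out sh120_Dox replicate 1 or 2 gave 17 or 22.

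Dox with the random hairpin changed none of the 53 genes at an adjusted p under 0.05 by limma, where 1.53% of everything tested was called lower and 1.45% higher. At an unadjusted p under 0.05 there were 4 lower and 1 higher, as were 748 and 806 of the 9654 genes and unnamed probes tested. Log2 fold changes of the 53 genes ran from -0.39 to 0.33 with a median of -0.11. Tested against that effect, the Dox effect of the sh225 line was lower for 49 of 53 genes and higher for 0 (9.61% and 6.66% of everything tested), with a median difference of -1.44. The Dox effect of the sh120 line differed from that of Ctrl for 2 genes, UBE2C and TACC3 (0.0725% of everything tested was called lower and 0.352% higher). Both calls were lost when any of the 8 arrays was left out, which gave 0 genes each time. At an unadjusted p under 0.05 the sh120 effect was below that of Ctrl for 20 genes and above it for 1. Over the 9654 genes and unnamed probes tested these numbers were 621 and 659. The median difference over the 53 genes was -0.35. Without Dox no difference between the lines was detectable at this number of arrays: 0 of 53 genes were called between sh225 and Ctrl by limma, with 16 lower and 3 higher at an unadjusted p under 0.05, and 0 between sh120 and Ctrl, with 6 lower and 0 higher (0.124% and 0.0207% of everything tested were called lower, and 0.331% and 0% higher). These shares are of adjusted calls, and those at an unadjusted p are not given here. The sh225 and Ctrl arrays also lie in different runs of the array numbering in the labels, so that line and run cannot be told apart.

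**Figure D3:**
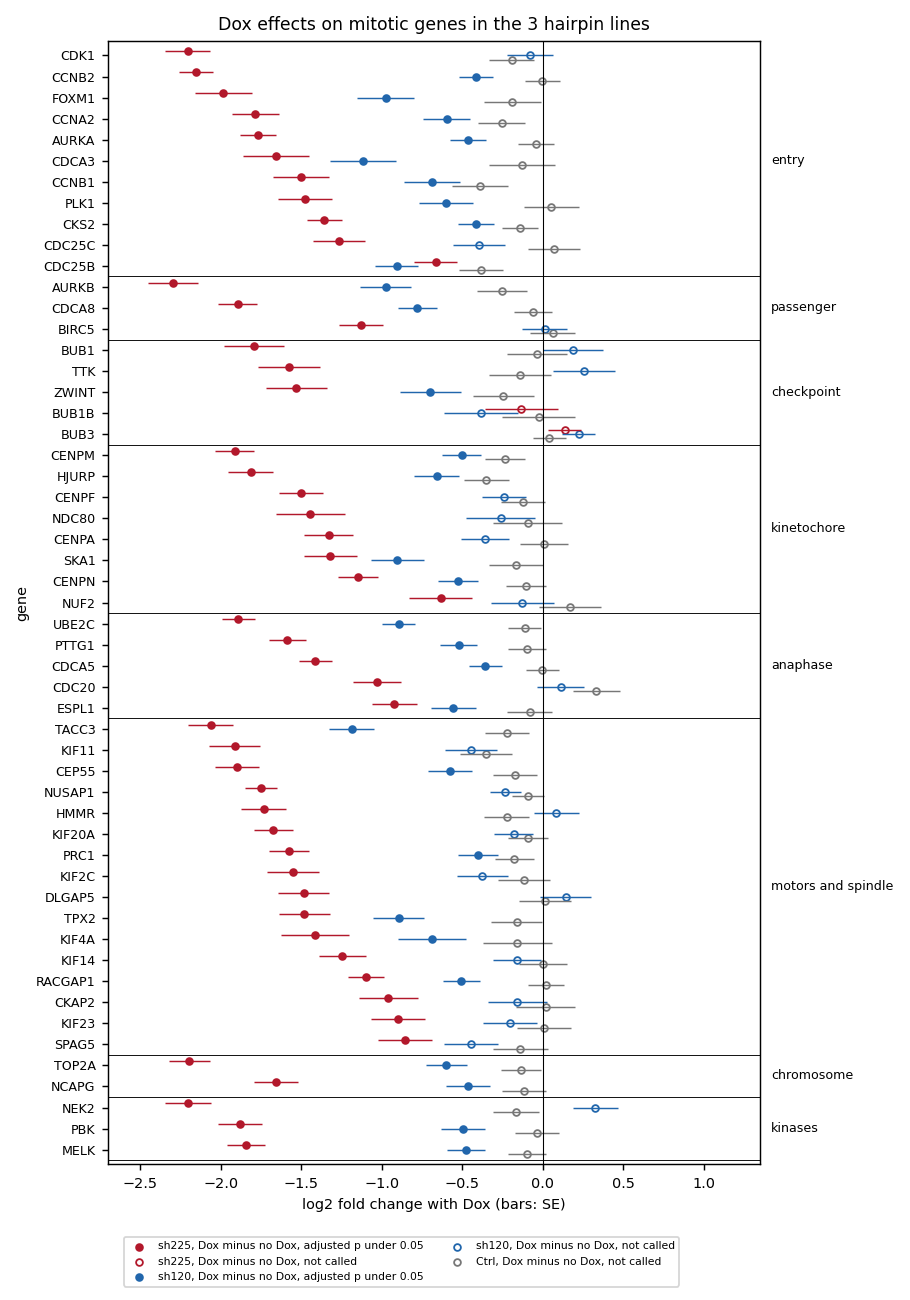
Log2 fold change with Dox (x axis) of each of 53 mitotic genes (y axis, by role) in the sh225 line (red), the sh120 line (blue) and the Ctrl line (grey); bars are SE and filled points have an adjusted p under 0.05. Red points lie at -0.63 or lower in all rows but BUB1B and BUB3, and left of the blue points in all rows but CDC25B and BUB1B. Blue points lie between -1.19 and 0.33, and grey points near 0. For 9 genes undetected in sh225_Dox the fitted values shown depend on the background, with bounds in the text for 7 of them and none for BUB1B and NUF2.

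Mitotic transcripts were lower in the K26 line than in the WT line as well. Each protein came from a single line, so that mutation, line and level of H1.4 cannot be told apart. The H1-4 probe read 7.80 and 7.57 (log2 intensity) on the K26 arrays, against 8.00 and 8.03 on the WT arrays. The H1-2 probe read 11.18 and 11.23 on the K26 arrays, against 10.05 and 9.94 on the WT arrays. In the K26 line 32 of 53 genes were lower than in the WT line and 0 were higher (12.8% of everything tested was called lower and 10.1% higher), with a median log2 difference of -0.46. K26 arrays lay below WT arrays without overlap for 46 genes (33.6% of everything tested did so), but the fitted difference reached 2-fold for AURKB alone. Without WT replicate 2 the count was 21, and 25 was the highest count with any array left out. Both lines were also set against Ctrl, whose arrays lie in the other run of the numbering, so that run and overexpression cannot be told apart. Of 53 genes 46 were lower and 2 higher in K26 than in Ctrl (27.2% and 24.2% of everything tested), and 15 were lower and 3 higher in WT than in Ctrl (15.5% and 16.3%). With median scaling in place of quantile normalization 7 were lower and 7 higher in WT than in Ctrl.

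Genes of entry into mitosis come first in the programme. All 11 tested fell with Dox in the sh225 line, 9 fell in the sh120 line and 5 were lower in K26 than in WT. Among all items tested, the shares called lower were 18.5%, 8.43% and 12.8%, in the same order. CDK1, the kinase that drives entry, read 8.00 and 8.29 (log2 intensity) on the sh225_Dox arrays, against 10.31 and 10.39 on the sh225 arrays. This was a log2 fold change of -2.21 ± 0.14 (adjusted p = 6.82e-10, n = 2 per group), with the groups well apart. In the sh120 line CDK1 read 9.93 and 9.93 with Dox, against 9.81 and 10.21 without, so the groups overlapped (-0.08 ± 0.14, adjusted p = 0.743), and its sign turned with median scaling (0.03) or without sh120 replicate 2 (0.12). A second, dimmer CDK1 probe gave -0.29 there (adjusted p = 0.347 in the limma fit of all probes). Of the cyclin B genes, CCNB1 fell by 0.69 ± 0.17 in the sh120 line on the log2 scale (adjusted p = 0.0120) and CCNB2 by 0.42. CCNB2 fell by 2.15 and cyclin A2, CCNA2, by 1.79 in the sh225 line.

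FOXM1, the activator of the late genes, read 5.31 and 4.78 (log2 intensity) on the sh225_Dox arrays, where it was undetected, against 7.03 and 7.03 on the sh225 arrays, and was at least 2.17-fold lower (adjusted p = 5.55e-08). It read 6.37 and 6.42 on the sh120_Dox arrays, against 7.47 and 7.28 on the sh120 arrays, a log2 fold change of -0.98 ± 0.18 (adjusted p = 0.00126). On the K26 arrays it read 6.35 and 6.41, against 7.07 and 7.28 on the WT arrays (-0.79 ± 0.18, adjusted p = 0.00348). FOXM1 was therefore lower in all 3 comparisons, with no overlap of arrays in any. CDCA3, a trigger of the degradation of the mitotic brake WEE1, was undetected on both sh225_Dox and both sh120_Dox arrays. It read 5.37 and 5.59 (log2 intensity) on the sh120_Dox arrays, against 6.76 and 6.44 on the sh120 arrays, and was at least 1.82-fold lower in the sh225 line and at least 1.5-fold lower in the sh120 line.

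The CDC25 phosphatases activate CDK1. CDC25B read 8.80 and 8.47 (log2 intensity) on the sh225_Dox arrays, against 9.23 and 9.37 on the sh225 arrays, and 8.26 and 8.48 on the sh120_Dox arrays, against 9.29 and 9.26 on the sh120 arrays. Its log2 fold change was -0.66 ± 0.13 in the sh225 line and -0.91 ± 0.13 in the sh120 line (adjusted p = 0.000739 and 0.000249), and it was not called in the difference between these effects (0.24 ± 0.19, adjusted p = 0.463). In the Ctrl line its log2 fold change of -0.38 ± 0.13 missed the threshold (adjusted p = 0.141). CDC25C fell in the sh225 line (-1.27 ± 0.16, adjusted p = 5.25e-06) and missed the threshold in the sh120 line (-0.40 ± 0.16, adjusted p = 0.0975), where its other 2 probes were called lower (-0.81 and -0.65, adjusted p = 0.00570 and 0.00979 in the limma fit of all probes). It read 5.86 and 5.97 on the K26 arrays, against 6.90 and 6.55 on the WT arrays, a log2 difference of -0.81 ± 0.16 (adjusted p = 0.00154). Its other 2 probes gave -0.45 and -0.61 there (adjusted p = 0.0767 and 0.00989 in the fit of all probes), and 2 of the CDC25C probes may be exchanged between the scanner table and the series matrix. The Polo kinase PLK1 and the Aurora kinase AURKA fell by 1.48 and 1.77 in the sh225 line on the log2 scale, and CKS2, a small partner of CDK1, by 1.36.

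The chromosomal passenger complex corrects faulty attachments of chromosomes to the spindle. Among the 42 genes detected on every array, its kinase AURKB had the largest fall in the sh225 line and the largest deficit in K26. It read 7.02 and 7.43 (log2 intensity) on the sh225_Dox arrays, against 9.47 and 9.58 on the sh225 arrays, which was -2.30 ± 0.16 (adjusted p = 1.61e-09). On the sh120_Dox arrays it read 8.53 and 8.36, against 9.25 and 9.60 on the sh120 arrays (-0.98 ± 0.16, adjusted p = 0.000525). The K26 arrays gave 8.16 and 8.11, against 9.25 and 9.20 on the WT arrays (-1.09 ± 0.16, adjusted p = 9.55e-05). The WT arrays lay within the range of the Ctrl arrays, 9.41 and 9.12. CDCA8, the borealin subunit, fell by 1.90 in the sh225 line and 0.78 in the sh120 line on the log2 scale and was lower in K26 than in WT (-0.46). BIRC5, the survivin subunit, fell in the sh225 line (-1.13 ± 0.14, adjusted p = 3.80e-06), while its log2 fold change in the sh120 line was 0.01 ± 0.14. A second BIRC5 probe, undetected on every hairpin-line array, was not called in the sh225 line (-0.55, adjusted p = 0.0575 in the limma fit of all probes).

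The spindle checkpoint holds back anaphase until every chromosome is attached. This group was the least uniform: 3 of 5 tested genes fell in the sh225 line, 1 in the sh120 line (ZWINT, -0.70), and 2 were lower in K26 than in WT. Of everything tested, 18.5%, 8.43% and 12.8% were called lower in these comparisons, and 5 genes are too few to set against such shares. BUB1, a checkpoint kinase, was undetected on the sh225_Dox arrays at 5.67 and 5.28 (log2 intensity), against 7.36 and 7.17 on the sh225 arrays, and was at least 2.56-fold lower (adjusted p = 4.96e-07). In the sh120 line it read 7.24 and 7.13 with Dox, against 6.89 and 7.11 without, with no overlap, but it was not called (0.19 ± 0.19, adjusted p = 0.528). TTK, the kinase that starts checkpoint signalling, fell in the sh225 line (-1.57 ± 0.19, adjusted p = 3.50e-06), and its log2 fold change in the sh120 line was 0.26 ± 0.19. BUB3, which recruits BUB1 to kinetochores, was bright in every group at 11.06 to 11.61 (log2 intensity). It read 11.31 and 11.51 on the sh225_Dox arrays, against 11.30 and 11.25 on the sh225 arrays, a log2 fold change of 0.14 ± 0.10 (adjusted p = 0.314). Probes of BUB3 disagreed in sign in the sh225 line, the sh120 line and K26 against WT (0.14, 0.22 and -0.29 for the brighter probe against -0.29, -0.32 and 0.15 for the dimmer), and the lower call in K26 (adjusted p = 0.0450) was lost with the mean of both probes and in other settings. BUB1B, a checkpoint protein that inhibits CDC20, was detected on 5 arrays and on none of those with the sh225 hairpin, where it read 5.34 and 5.51 with Dox, against 5.60 and 5.52 without. It was not called in either hairpin line.

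Kinetochore and centromere genes build the attachment site of the spindle. All 8 tested fell in the sh225 line (18.5% of everything tested), 4 fell in the sh120 line (8.43%) and 6 were lower in K26 than in WT (12.8%). CENPM, a subunit of the inner kinetochore, read 7.29 and 7.33 (log2 intensity) on the sh225_Dox arrays, against 9.16 and 9.28 on the sh225 arrays (-1.92 ± 0.12, adjusted p = 6.82e-10). In the sh120 line it read 8.87 and 8.80 with Dox, against 9.34 and 9.35 without (-0.50 ± 0.12, adjusted p = 0.00955), a call lost without sh120 replicate 1, sh120 replicate 2 or sh120_Dox replicate 2 (adjusted p = 0.0568, 0.0606 and 0.0659). The K26 arrays gave 8.39 and 8.30, against 9.14 and 9.15 on the WT arrays (-0.80 ± 0.12, adjusted p = 0.000184). In none of these 3 comparisons did the CENPM values of the groups overlap. CENPA, the histone variant that marks centromeres, fell by 1.33 in the sh225 line on the log2 scale and was lower by -0.70 in K26 than in WT. A second CENPA probe gave -0.74 in the sh225 line and was not called in K26 against WT (-0.21, adjusted p = 0.376 in the limma fit of all probes). In the sh120 line that second probe was called lower (-0.49, adjusted p = 0.047 in that fit), while the tested probe was not. HJURP, the chaperone that deposits CENPA, was undetected on the sh225_Dox arrays and at least 3.39-fold lower there. NDC80, which grips microtubules, was at least 2.04-fold lower in the sh225 line, and its log2 difference between K26 and WT was -0.09.

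Of genes of anaphase and sister chromatid separation, 5 of 5 fell in the sh225 line, 4 in the sh120 line and 4 were lower in K26. Of everything tested, 18.5%, 8.43% and 12.8% were called lower in these comparisons. UBE2C, the ubiquitin-conjugating enzyme of the anaphase-promoting complex, read 9.13 and 9.35 (log2 intensity) on the sh225_Dox arrays, against 11.04 and 11.22 on the sh225 arrays (-1.89 ± 0.10, adjusted p = 9.58e-11). On the sh120_Dox arrays it read 10.30 and 10.28, against 11.21 and 11.17 on the sh120 arrays (-0.90 ± 0.10, adjusted p = 1.66e-05). Against the Ctrl_Dox effect the sh120 effect was lower by -0.78 ± 0.15 (adjusted p = 0.0192). CDCA5, the sororin that guards cohesion, read 10.28 and 10.45 on the K26 arrays, against 11.20 and 11.22 on the WT arrays (-0.85 ± 0.10, adjusted p = 1.62e-05). Securin, PTTG1, and separase, ESPL1, which it inhibits, fell by 1.59 and 0.92 in the sh225 line on the log2 scale. CDC20, the activator of the complex, fell by 1.03 in the sh225 line and was not called in the sh120 line (0.11) or in K26 against WT (-0.39).

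The largest group holds 16 genes of motors, spindle and cytokinesis. All 16 fell in the sh225 line (18.5% of everything tested), 6 in the sh120 line (8.43%) and 9 were lower in K26 than in WT (12.8%). TACC3, which crosslinks the microtubules of spindle fibres, had the largest fall in the sh120 line among the 42 genes detected on every array. It read 7.35 and 7.25 (log2 intensity) on the sh120_Dox arrays, against 8.46 and 8.51 on the sh120 arrays (-1.19 ± 0.14, adjusted p = 1.89e-05). On the sh225_Dox arrays it read 6.43 and 6.06, against 8.33 and 8.28 on the sh225 arrays (-2.06 ± 0.14, adjusted p = 1.41e-09). Its sh120 effect was lower than the Ctrl effect by -0.96 ± 0.20 (adjusted p = 0.0357). The kinesin motors KIF11, which pushes the poles apart, KIF20A, which acts in cytokinesis, and KIF2C, which depolymerises microtubules, fell by 1.92, 1.67 and 1.55 in the sh225 line on the log2 scale. None of these 3 was called in the sh120 line, and all 3 were lower in K26 than in WT (-0.46, -0.35 and -0.78). SPAG5 and KIF23 fell by 0.86 and 0.90 in the sh225 line on the log2 scale, and CKAP2 and KIF4A, undetected on the sh225_Dox arrays, were at least 1.51-fold and at least 1.47-fold lower.

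Of chromosome structure genes, TOP2A, the topoisomerase that untangles sister DNA, read 9.20 and 8.80 (log2 intensity) on the sh225_Dox arrays, against 11.24 and 11.16 on the sh225 arrays (-2.20 ± 0.13, adjusted p = 1.83e-10). In the sh120 line it read 10.45 and 10.82 with Dox, against 11.28 and 11.19 without (-0.60 ± 0.13, adjusted p = 0.00394), a call lost without sh120_Dox replicate 1 (adjusted p = 0.0779). The condensin subunit NCAPG fell by 1.66 and 0.46 in these lines on the log2 scale. TOP2A and NCAPG were lower in K26 than in WT by -0.63 and -0.68.

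Among other mitotic kinases, NEK2, which lets centrosomes separate, gave the largest difference between the hairpin lines among the 42 genes detected on every array. It read 6.54 and 6.81 (log2 intensity) on the sh225_Dox arrays, against 8.96 and 8.81 on the sh225 arrays (-2.20 ± 0.14, adjusted p = 6.82e-10). In the sh120 line it read 8.70 and 8.89 with Dox, against 8.53 and 8.40 without (0.33 ± 0.14, adjusted p = 0.121). Arrays with Dox thus lay wholly below the others in the sh225 line and, by a margin that was not called, above them in the sh120 line. MELK, a kinase of proliferating cells, read 9.0 and 9.18 on the K26 arrays, against 9.83 and 10.04 on the WT arrays (-0.84 ± 0.12, adjusted p = 7.45e-05), and fell by 1.84 in the sh225 line and 0.48 in the sh120 line on the log2 scale. PBK, another such kinase, fell by 1.88 and 0.50 in these lines.

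The Dox effects of the sh225 and sh120 lines were compared directly, since each has its own untreated arrays. The sh225 effect was lower for 42 of 53 genes and higher for 0 (8.37% of everything tested was called lower and 5.58% higher), with a median difference of -1.12 on the log2 scale. Among the 42 genes detected on every array, the widest differences were those of NEK2 (-2.53 ± 0.20, adjusted p = 3.42e-08), CDK1 (-2.13 ± 0.20, adjusted p = 3.37e-07), TTK (-1.83 ± 0.27, adjusted p = 8.94e-05) and the hyaluronan-binding spindle protein HMMR (-1.82 ± 0.20, adjusted p = 2.53e-06). For BUB1, undetected on the sh225_Dox arrays, the difference was also called (adjusted p = 2.78e-05), but its fitted size, -1.98, depends on the background. For AURKB the difference was -1.32 ± 0.22 (adjusted p = 0.000310) and for TACC3 -0.88 ± 0.20 (adjusted p = 0.00455), the second lost in the series matrix (adjusted p = 0.0572). The 11 genes not called were NUF2, SKA1, ESPL1, CDCA3, CDC25B, KIF4A, SPAG5, KIF23, TPX2, BUB3 and BUB1B. These lines lie in different runs of the array numbering, although each Dox effect lies within a run.

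**Figure D4:**
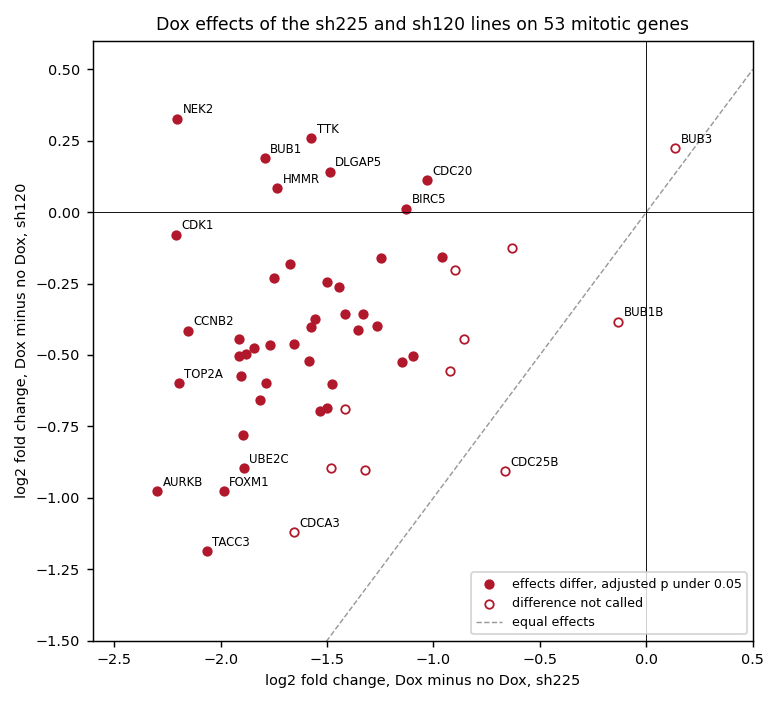
Log2 fold change with Dox in the sh225 line (x axis) against that in the sh120 line (y axis) for 53 mitotic genes; filled points have an adjusted p under 0.05 for the difference between both effects, and the dashed line marks equal effects. All points but CDC25B and BUB1B lie above the line, with NEK2 the farthest at -2.20 and 0.33; values of 9 genes undetected in sh225_Dox are fitted.

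Genes sorted by their calls show how the 3 comparisons overlap. All 30 genes that fell in the sh120 line were among the 51 that fell in the sh225 line (4.83% of everything tested was lower in both). Of the 32 genes lower in K26 than in WT, 31 were also lower with Dox in sh225 (5.9% of everything tested did both), which is 31 of 51 in that list. In all 3 lists stood 22 genes, among them AURKB, FOXM1, TOP2A, UBE2C and CCNB2. Another 12 were called in the sh225 line and in neither other comparison: BIRC5, CDC20, CDK1, CKAP2, DLGAP5, HMMR, KIF14, NDC80, NEK2, NUF2, SPAG5 and TTK. Of these, SPAG5 and NUF2 were not called in the difference between the sh225 and sh120 effects, and the difference between the sh225 effect and K26 against WT was not tested. With 51 of 53 genes lower in the sh225 line, overlaps with that list follow largely from its size. For the 22 and the 12 genes the share of everything tested is not given here, so these counts cannot be set against it. Across the 53 genes the sizes of the effects were weakly related, as a description of genes measured on shared arrays: r = 0.24 between the sh225 and sh120 effects (0.33 over everything tested), 0.31 between the sh225 effect and K26 against WT (0.25), and 0.37 between the sh120 effect and K26 against WT (0.17).

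Against Ctrl the overexpression lines each had exceptions to the lower levels. BIRC5 read 8.28 and 8.17 (log2 intensity) on the K26 arrays and 8.50 and 8.48 on the WT arrays, against 7.64 and 7.93 on the Ctrl arrays. It was higher in WT (0.70 ± 0.14, adjusted p = 0.000827) and in K26 (0.44 ± 0.14, adjusted p = 0.0129), the second lost without Ctrl replicate 1 or K26 replicate 1 (adjusted p = 0.149 and 0.0875). CKS2 was higher in K26 by 0.47 ± 0.11 (adjusted p = 0.00141) and in WT by 0.32 ± 0.11 (adjusted p = 0.0342), and CDK1 was higher in WT by 0.46 ± 0.14 (adjusted p = 0.0183). The WT calls of CKS2 and CDK1 were lost when single arrays were left out, with adjusted p up to 0.170 for CKS2 (without Ctrl replicate 1) and 0.117 for CDK1 (without Ctrl replicate 2). CCNB1 was lower by much the same amount in both lines, at -1.14 ± 0.17 in K26 and -1.15 ± 0.17 in WT (adjusted p = 2.66e-05 and 6.36e-05), and differed by 0.01 ± 0.17 between them. KIF20A was lower in WT by -1.07 ± 0.12 (adjusted p = 2.64e-06). CENPF, a kinetochore protein, and CDC25C were lower in K26 by -1.5 ± 0.14 and -1.47 ± 0.16 (adjusted p = 5.48e-08 and 4.81e-07). The count of 15 lower genes in WT became 6 without Ctrl replicate 1 and 9 without WT replicate 2, and that of 3 higher genes became 1 without Ctrl replicate 2, WT replicate 1 or WT replicate 2. For the 2 higher genes in K26 the count was 1 without Ctrl replicate 1 or K26 replicate 1.

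Neighbouring gene lists place these values. Of 39 other periodic G2/M genes tested, 36 fell in the sh225 line (18.5% of everything tested), with a median log2 fold change of -1.16. They included CKAP2L (-2.04 ± 0.16) and TROAP (-1.91 ± 0.13), which act on the spindle. With Dox 19 fell in the sh120 line (8.43%) and 0 under the random hairpin (1.53%), while 19 were lower and 1 higher in K26 than in WT (12.8% and 10.1%). Tested against the Ctrl effect, the sh120 effect was lower for 1 of these 39 genes. The list of core subunits of the anaphase-promoting complex, which also holds its activator FZR1, had 14 tested genes. Their transcripts are mostly steady through the cycle. They had a median of 0.09 in the sh225 line, where 2 fell and 2 rose (18.5% of everything tested was called lower and 17.1% higher). With Dox, 3 rose in the sh120 line (8.07% of everything tested), and 1 was higher in K26 (10.1%). ANAPC16 (-0.96 ± 0.16) and ANAPC15 (-0.66 ± 0.13) were those that fell. The enzyme UBE2C and the activator CDC20 of that complex, which are periodic, fell by 1.89 and 1.03.

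**Figure D5:**
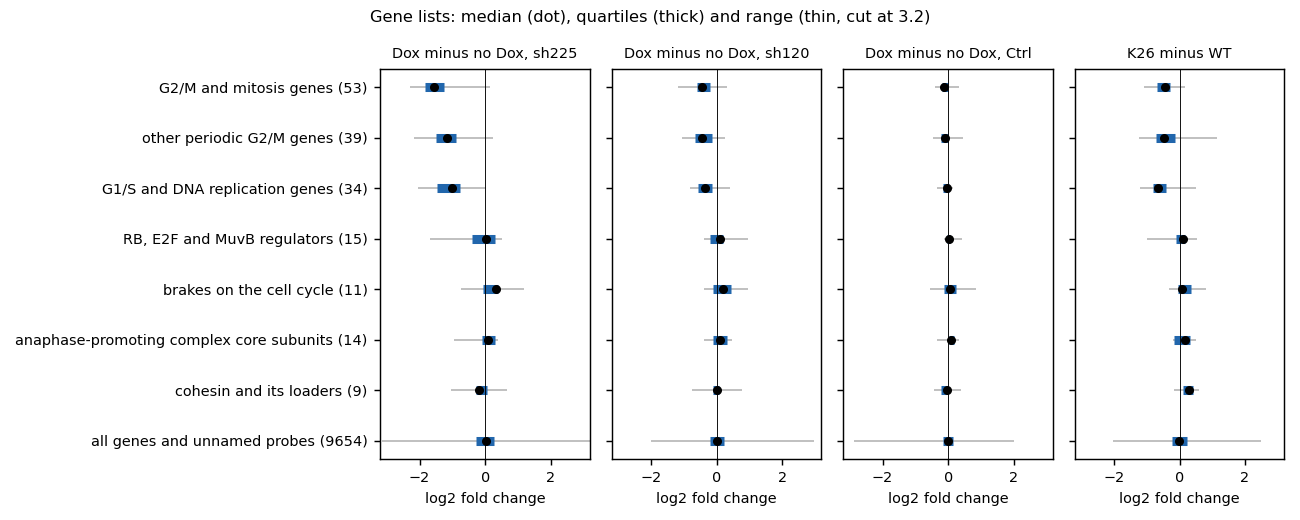
Log2 fold changes of gene lists (rows, genes tested in parentheses) with Dox in the sh225, sh120 and Ctrl lines and in K26 against WT (panels, x axis in log2 units); dots are medians, thick bars quartiles and thin bars the range, which is cut at 3.2. The mitotic genes, the other periodic genes and the G1/S genes lie left of 0 in the sh225 panel (medians of -1.55, -1.16 and -1.0), and the other lists lie around 0.

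Regulators that bind these promoters include the RB, E2F and MuvB genes. Of 15 tested, 3 fell and 3 rose in the sh225 line (18.5% of everything tested was called lower and 17.1% higher), 1 rose in the sh120 line (8.07%), and 3 were lower and 1 higher in K26 than in WT (12.8% and 10.1%). E2F7, a repressor of the E2F family that is itself transcribed in S phase, read 6.49 and 6.57 (log2 intensity) on the sh225_Dox arrays, against 8.31 and 8.14 on the sh225 arrays (-1.70 ± 0.15, adjusted p = 4.85e-08). It read 8.93 and 8.98 on the sh120_Dox arrays, against 8.18 and 7.84 on the sh120 arrays (0.95 ± 0.15, adjusted p = 0.000436). E2F7 therefore had opposite Dox effects under the hairpins, and these effects differed by -2.64 ± 0.21 (adjusted p = 3.56e-08). Its rise in the sh120 line exceeded the Ctrl effect by 1.04 ± 0.21 (adjusted p = 0.0357), a call lost without any of 6 arrays: both Ctrl arrays (adjusted p = 0.124 and 0.0659), Ctrl_Dox replicate 1 (0.206), sh120 replicate 2 (0.175) and both sh120_Dox arrays (0.0683 and 0.112). That E2F7 call was also lost in limma fits with median scaling, with no filter or with only the arrays of the same numbering run (adjusted p = 0.0501, 0.0607 and 0.0583). The activator E2F2 fell in the sh225 line (-1.68 ± 0.18, adjusted p = 7.03e-07) and was lower in K26 than in WT (-1.0 ± 0.18, adjusted p = 0.000743). E2F4, a DREAM subunit, rose by 0.41 and RBL2, which encodes p130, by 0.48 in the sh225 line, and LIN54, the MuvB subunit that binds the CHR, fell by 0.52. Tested against the Ctrl effect, the sh225 effect was lower for 2 of the 15 genes, E2F7 and E2F2, and higher for 0 (9.61% and 6.66% of everything tested). E2F4, RBL2 and LIN54 were thus not called in that difference.

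Of 11 tested brakes on the cell cycle and related genes, 3 rose and 2 fell in the sh225 line (17.1% of everything tested was called higher and 18.5% lower). Those that fell were the CDK inhibitor gene CDKN2D (-0.74) and the cyclin gene CCND1 (-0.37). With Dox 2 rose in the sh120 line (8.07%) and 1 in the Ctrl line (1.45%), and 2 were higher in K26 than in WT (10.1%). CDKN2B, an inhibitor of CDK4 and its relatives, rose with Dox in all 3 lines, by 1.17 ± 0.15 in sh225, 0.97 ± 0.15 in sh120 and 0.84 ± 0.15 in Ctrl (adjusted p = 8.19e-06, 0.000479 and 0.00325), the last lost without Ctrl_Dox replicate 2 (adjusted p = 0.0892). CDKN1A, which encodes p21, read 12.15 and 12.42 (log2 intensity) on the sh225_Dox arrays, against 11.66 and 11.66 on the sh225 arrays (0.63 ± 0.13, adjusted p = 0.00116). That rise did not differ from the Ctrl effect at the threshold (0.35 ± 0.19, adjusted p = 0.235). CDKN1B, which encodes p27, read 7.80 and 8.27 on the K26 arrays, against 7.19 and 7.29 on the WT arrays (0.80 ± 0.22, adjusted p = 0.0137), a call lost without WT replicate 1 or K26 replicate 2 (adjusted p = 0.0897 and 0.180).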

How the data were processed

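RNA of 16 T47D-MTVL samples was measured on 1 Illumina bead array each. The authors deposited a scanner table with an intensity per probe and array, neither background-subtracted nor scaled (array medians 78.0 to 105.4), and a detection p-value beside each deposited intensity. GenomeStudio 1.6.0 is named, with no role, in the submitters' processing notes. The authors' deposited series matrix holds linear intensities with medians of 133.6 to 134.5, and their normalization is not stated in the labels or the file. It served as an alternative. Its probe identifiers are partly interchanged with the scanner table. No probe of the 56 genes had a median log2 gap over 0.3 between the tables, but 2 CDC25C probes had gaps of 0.153 and 0.154, where BUB3 had the next largest (0.00391), so these 2 may be exchanged.

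Probes were named from the platform annotation (23266 with 1 symbol, 0 with several, 1264 unnamed), and 23142 matched a gene table, with 0 symbols changed. Intensities were corrected by normexp with an offset of 16 and inferred negative controls, quantile-normalized and log2-transformed (function neqc of limma 3.58.1, R 4.3.3). A probe was kept when 2 or more arrays detected it at p under 0.01 (11258 probes), and 1 probe per symbol, that of highest mean, was tested, 9654 items in all. The limma model had a mean per group, moderated variances with a trend and 8 residual degrees of freedom. Adjustment was by Benjamini and Hochberg over all items. For a gene undetected on both arrays of a group, a bound, "at least N-fold", was taken from the mean of the brighter group and, on each array of the dim one, its lowest signal among detected probes or the probe's own signal where that is higher. The fit was tested on simulated data. Replicate numbers did not pair the arrays, so the model has no block.

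Values on every array are given by rule: in the sh225 line for the largest effect in each role and for genes that missed the test, for the 5 largest effects in the sh120 line and in K26 against WT, and for genes whose probes disagree in sign with 1 of them called. Of other lists, up to 3 called genes per direction and comparison are named. Values for the other genes named in the difference of sh225 and sh120 and in comparisons with Ctrl were chosen after they were seen. The members and lists were chosen with earlier results of these data known. Alternatives changed the background correction, offset, scaling, filter, probe choice, table, samples, block, trend and a minimum log2 change of 0.5, and left out each array in turn.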

Additional observations from a re-analysis of the deposited data

Results flagged for a closer look

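Effects of Dox that differed between lines by limma's test of the difference itself were set apart for a closer look. Compared with the Ctrl effect, the sh225 effect was lower for 49 of 53 genes and the sh120 effect for 2. Compared with the sh120 effect, the sh225 effect was lower for 42 of 53. Of the genes named for the sh225 and sh120 lines, the difference of log2 fold changes was -2.53 for NEK2, -2.13 for CDK1, -1.83 for TTK, -1.82 for HMMR, -1.32 for AURKB and -0.88 for TACC3. For BUB1, undetected on the sh225_Dox arrays, the fitted difference of -1.98 depends on the background. For the regulator E2F7 the difference was -2.64. Between the sh120 and Ctrl lines it was -0.78 for UBE2C, -0.96 for TACC3 and 1.04 for E2F7. The sh225 arrays lie in a different run of the array numbering from those of sh120 and Ctrl, and every Dox effect is taken within a run. With 2 arrays per group, samples were not examined for outliers.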

How the results depend on the processing

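In the sh225 line 51 genes were lower, and every alternative listed kept the count within 1.5 times, as for its differences from Ctrl and from sh120 (49 and 42). For sh120 against Ctrl the count of 2 became 0 with median scaling and 1 with no filter, with the mean of a gene's probes or without the trend. For WT against Ctrl the 15 lower and 3 higher genes became 7 and 7 with median scaling, which moved the median of everything tested by 0.14 in that comparison and 0.11 in K26 against Ctrl, and 8 and 1 with a minimum log2 change of 0.5. That minimum took the 2 higher genes of K26 against Ctrl to 0. Log2 fold changes of uncalled genes turned sign for BUB3 with the mean of its probes (-0.079 in sh225 and -0.046 in sh120) and for CDK1 in sh120 with median scaling (0.032) or without sh120 replicate 2 (0.12, against -0.28 without sh120 replicate 1). Promoter windows that begin 150 bases before the start held a CHR in 33, a CCAAT match in 33 and an E2F match in 13 genes.

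With single arrays left out, counts of lower genes ran from 50 to 51 in sh225, 14 to 22 in sh120, 47 to 49 for sh225 against Ctrl, 0 to 0 for sh120 against Ctrl, 34 to 40 for sh225 against sh120, 21 to 25 for K26 against WT, 6 to 15 for WT against Ctrl and 37 to 43 for K26 against Ctrl. Higher genes numbered 1 to 2 in both of the last comparisons. In such fits the lone array of a group is assumed to vary like the other groups. The count for sh120 fell below 20 without sh120 replicate 1 (14), sh120 replicate 2 (18) or sh120_Dox replicate 1 (17), and that for K26 against WT was 21 without WT replicate 2. The cause was not tested.

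The replicate numbers share only a number: deviations of same-numbered arrays correlated at -0.36 to 0.32 between groups. With the replicate number as a block, 51 genes were lower in sh225, 30 in sh120 and 30 in K26 against WT, and the call of BUB3 in K26 was lost (adjusted p = 0.0524).

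Probes near background limit the falls: with 7 genes at their bounds, the median log2 fold change in sh225 was -1.5. The array numbering restarts between the sh120 and Ctrl lines and the other lines, so comparisons of K26 and WT with Ctrl cannot be told apart from it.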

Other observations

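Genes of G1/S and DNA replication, which are transcribed before the mitotic genes, were lower in the same comparisons. Of 34 tested, 30 fell with Dox in the sh225 line (median log2 fold change -1.0), including thymidine kinase TK1 (-2.05 ± 0.10, adjusted p = 2.92e-11 by limma) and the replication clamp PCNA (-1.75 ± 0.13, adjusted p = 6.95e-09). The share of all tested items called lower in that comparison was 18.5%. In the sh120 line 16 fell (8.43%, median -0.37), among them PCNA (-0.81 ± 0.13, adjusted p = 0.000616), and in the Ctrl line 0 did (1.53%). Tested against the Ctrl effect, the sh225 effect was lower for 29 of the 34 genes (9.61% of everything tested). The sh120 effect differed from it for 0. In K26 against WT 25 were lower (12.8% of everything tested), with a median of -0.65. This is below the median of -0.46 over the mitotic genes, and that difference between lists was not tested. Cohesin, the ring that holds sister chromatids together, had 9 tested genes with its loaders and other regulators, WAPL among the latter. Of these 2 fell and 1 rose in the sh225 line (18.5% of everything tested was called lower and 17.1% higher) and 1 fell and 1 rose in the sh120 line (8.43% and 8.07%). In K26 against WT 3 were higher, where 10.1% of everything tested was called higher (RAD21, NIPBL and WAPL, at 0.58, 0.51 and 0.42 on the log2 scale).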
